A study of Mus musculus with 11 samples.

Results

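The genes examined here were the 43 members of the bone morphogenetic protein (BMP) and TGF-beta signalling pathway in a list of ligands, receptors, Smads, antagonists, matrix and processing genes, and targets. An open chromatin region was assigned to a gene when it overlapped the gene body or the 20 kb before its start, in GENCODE vM21 coordinates on mm10. These windows held 349 of the 94963 regions in the deposited list, and 0 regions lay in the windows of 2 members. Open chromatin had been profiled by ATAC-seq, which reads where the Tn5 transposase can cut, in MPC2, a mouse mesenchymal stem cell line that is 1 conditionally immortalised clone. The 11 samples comprised 3 undifferentiated cultures (MSCs) given vehicle (DMSO), 3 MSC cultures given FG-4592, 2 osteocyte cultures given vehicle and 3 osteocyte cultures given FG-4592. FG-4592 (Roxadustat), which blocks the prolyl hydroxylases that mark hypoxia-inducible factors (HIF) for breakdown, was applied at 50 uM, vehicle or drug was present for 48 h, and osteocytes had 3 weeks of osteogenic culture beforehand.

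The list gave each region 1 value pooled over the series, read here as average log2 CPM (counts scaled to library size). It gave no value per sample, so depth per sample was unknown, no replicate error could be attached to any value below, and neither FG-4592 against vehicle nor osteocytes against MSCs could be compared from this list. What follows describes where the pathway genes were accessible in this clone as a whole. A region open in few cells and one weakly open in many cells could not be told apart. Of 10 osteogenic and mesenchymal marker genes, 7 had a region at a transcript start (64.1% of all protein-coding genes had one, so this count was near the background), Runx2, Sp7, Col1a1 and Dmp1 among them, while the late osteocyte genes Sost, Mepe and Phex had none. Of the endothelial markers Pecam1 and Cdh5, Pecam1 also had a region at a start and Cdh5 had none. A start region alone thus did not mark the cell type.

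BMPs, TGF-betas and activins are secreted dimers that bring together type I and type II serine/threonine kinase receptors. The activated type I receptor phosphorylates receptor Smads, Smad1, Smad5 and Smad9 for BMPs and Smad2 and Smad3 for TGF-beta and activin, which enter the nucleus with Smad4. Smad6 and Smad7 restrain the receptors, secreted antagonists capture the ligands, and the pathway directs bone formation and matrix turnover in skeletal cells.

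The DNA letters best known for BMP-activated Smads join a GC-rich part to a Smad box, and the few member regions that held such an element are shown first because the Id genes held the largest share of them. The compound BMP element was searched on both strands as GGCGNC, 5 bases and GTCT, and these fixed parts are in capitals (N is any base). Positions are given in bases from the start of the gene along its strand, and a negative position is upstream. Sequences are from the GRCm38 reference, the same assembly as mm10, and run 5′ to 3′ on the strand of the element.
Id1 at -1038 (chr2:152735186-152735240, plus strand): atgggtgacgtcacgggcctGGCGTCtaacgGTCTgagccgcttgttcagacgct
Id2 at -1721 (chr12:25098834-25098888, minus strand): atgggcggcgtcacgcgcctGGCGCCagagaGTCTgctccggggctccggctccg
Id3 at -2950 (chr4:136140520-136140574, plus strand): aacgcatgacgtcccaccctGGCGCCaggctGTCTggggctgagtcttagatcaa
Id3 at 1303 (chr4:136144773-136144827, plus strand): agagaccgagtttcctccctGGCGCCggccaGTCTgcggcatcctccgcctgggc
Grem1 at 910 (chr2:113757709-113757763, plus strand): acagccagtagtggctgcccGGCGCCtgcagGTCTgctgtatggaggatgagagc
Smad1 at 833 (chr8:79398658-79398712, minus strand): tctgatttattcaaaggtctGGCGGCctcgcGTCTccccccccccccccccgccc
Smad6 at 53173 (chr9:63968859-63968913, minus strand): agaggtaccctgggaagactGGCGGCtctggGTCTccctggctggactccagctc

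All 3 Id genes, which encode inhibitors of helix-loop-helix factors and are classical BMP targets, had the element inside a region, and Id3 had it in 2 regions. The GC-rich part was the full palindrome GGCGCC at Id2, at both Id3 positions and at Grem1, and a variant of it at Id1, Smad1 and Smad6. The Id1 and Id2 contexts were the most alike: 17 of the 20 bases before the element were identical, and 26 of the 46 bases outside the fixed letters. Among the 6 pairs of Id contexts the number of identical bases ranged from 13 to 26 of 46, and among the other 15 pairs from 8 to 21. The remaining 3 elements, at Inhbb (position 225), Tgfb1 (206) and Ltbp1 (65), lay in annotated untranslated sequence and are named only.

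A second form, the palindromic Smad box GTCTAGAC, occurred in 2 member regions, at the starts of the inhibitory Smads. It spanned the annotated start of Smad6, as shown with the box in capitals, and lay at position -350 of Smad7, which is named only.
Smad6 at 0 (chr9:64022045-64022074, plus strand): atcatatgccaGTCTAGACactttggcggc

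The compound element was present in 10 of the 349 member regions (2.87%), whereas 0.313% of all 94963 regions held it. The 10 regions belonged to 9 genes, 4 of them to the Id genes (4 of 16 regions), 2 each to ligands and Smads, 1 each to antagonists and matrix genes, and 0 of 97 to receptors. Outside the Id genes the share was 2.70% for ligands, 2.74% for Smads, 9.09% for the 11 antagonist regions and 1.28% for matrix and processing genes. The letters were chosen as a BMP element, and the Id genes are classical BMP targets. The part of the Id genes in the contrast was thus not independent of that choice. With the palindromic core alone, which was looked at after the sequences had been seen, 4 member regions (1.15%) and 84 regions of the whole list (0.0885%) remained. At transcript starts of any gene 7 of 80 member regions (8.75%) had the element, against 1.03% of all regions at starts. Away from starts the counts were 3 of 269 (1.12%) and 0.103%. Member regions were slightly wider than the list as a whole (median 478 against 460 bp), and per kb of region the element was found 0.0439 times in member regions and 0.0054 times in all regions. At starts, member regions had a median width of 1024.5 bp and 59.3% GC, against 867 bp and 56.8% for all regions there. Per kb at starts the element was found 0.0828 and 0.0119 times, without adjustment for GC. The element is a run of letters found by search, and binding of a Smad there was not measured.

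The GC-rich site GGCGCC alone was in 16.3% of member regions and in 10.8% of all regions, with 52.5% against 34.3% at starts. The palindromic box was in 0.573% of member regions and 0.572% of all, with 2 of 80 (2.50%) against 0.729% at starts and 0 of 269 against 0.526% elsewhere. The hypoxia response element core (ACGTG or GCGTG), which HIF recognises, was in 51.9% of member regions against 46.2% of all, or 1.92 and 1.72 sites per kb. The AP-1 site TGANTCA was in 27.5% against 28.1% and the Runx core TGTGGT in 40.7% against 42.7%. By role, AP-1 sites ranged from 17.8% of Smad gene regions to 36.4% of the 11 antagonist regions, and HRE cores from 47.3% of ligand regions to 68.8% of the 16 Id gene regions. Matches of different motifs may overlap, and each GGCGCC in a compound element also counts as a GC-rich site.

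**Figure D1:**
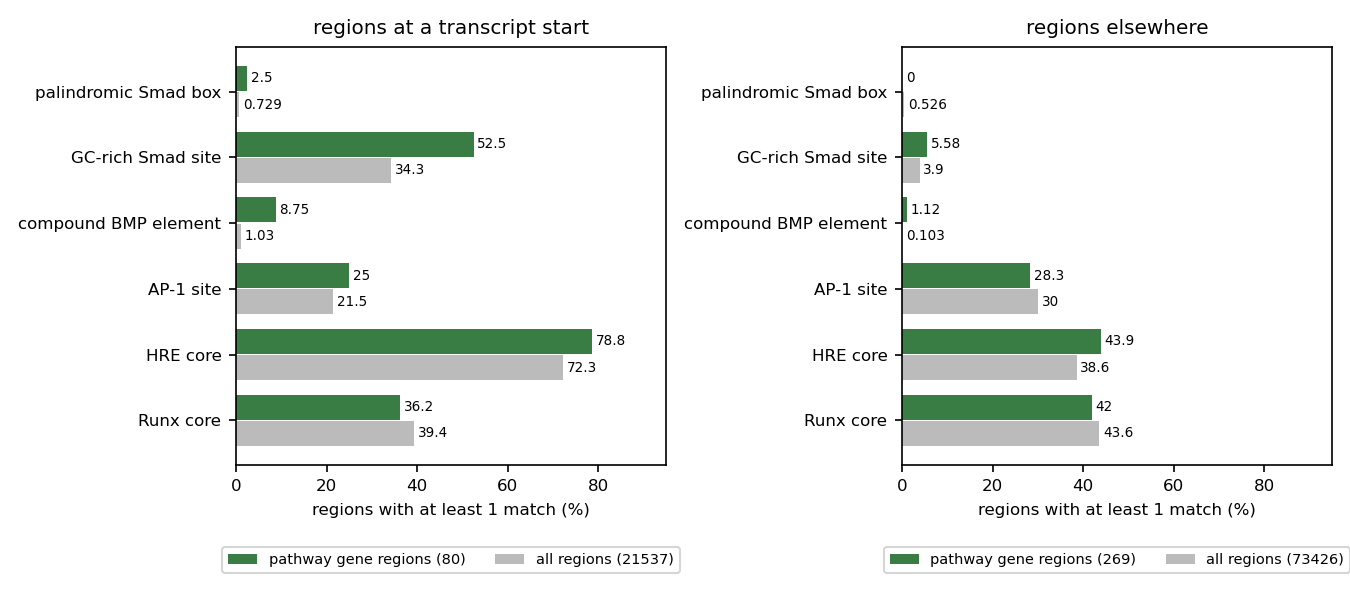
Percent of regions with at least 1 match to each of 6 motifs, on the x axis, for regions at a transcript start (left) and elsewhere (right). Green bars are regions of the pathway genes and grey bars are all regions of the list, with the number of regions in the legend; the compound BMP element is in 8.75% against 1.03% of regions at starts and in 1.12% against 0.103% elsewhere.

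The 43 genes were accessible more often than the genome at large. All but Bmp3 had at least 1 region in their window (42 of 43, against 79.5% of 21938 protein-coding genes), and 40 had one no farther than 1000 bp from a start of one of their transcripts (64.1% of all protein-coding genes). Bmp3, Bmp7 and Bmpr1b had none there. Start sequences rich in CpG, here at least 55% GC with an observed to expected CpG ratio of at least 0.6 over 500 bp to either side, are commonly open. Of the 31 members with such a start, 29 had a region at any of their transcript starts (91.7% of all CpG-rich genes), so those members were near the background. Of the 12 other members, 11 had one, while 46.9% of all other genes did. Some of the 12 lay just under a cutoff (Id1 with 55.1% GC and a ratio of 0.597, Tgfb3 with 54.9% and 0.661). Others, such as Bmp5 (37.0% and 0.264), lay far below, and other cutoffs were not tried. CpG content was scored at the start of the gene. Counting only regions at that start, 28 of the 31 CpG-rich members (90.3% of all CpG-rich genes) and 10 of the 12 others (39.8%) had one, since the start regions of Bmp4 and Ltbp2 lay at downstream transcripts. These 12 included the 3 Id genes, and all 8 Smad genes were CpG-rich.

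Counts per gene were then set beside genes of similar window length (within 20%), since long windows collect more regions. The member had more regions than the median of such genes in 30 cases, fewer in 8 and the same number in 5, and 44% of all protein-coding genes lay above their median. Regions per 10 kb of window had a median of 1.01 for members and 0.59 for all protein-coding genes. By role the medians were 2.14 for the 3 Id genes, 1.84 for the 4 matrix and processing genes, 1.02 for the 4 antagonists, 1.01 for the 13 ligands, 0.89 for the 11 receptors and 0.87 for the 8 Smads. Ligands, receptors, Smads and antagonists lay close together in density with these windows, but not with 10 kb upstream, where antagonists had 1.63 against 1.07, 0.88 and 0.85 for ligands, receptors and Smads, nor among regions of at least 500 bp, where antagonists had 0.61 and receptors 0.27. With 20 kb upstream, the spread within a role (0.03 to 1.63 among receptors, 0.34 to 2.69 among Smads) was wider than the gaps between their medians.

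**Figure D2:**
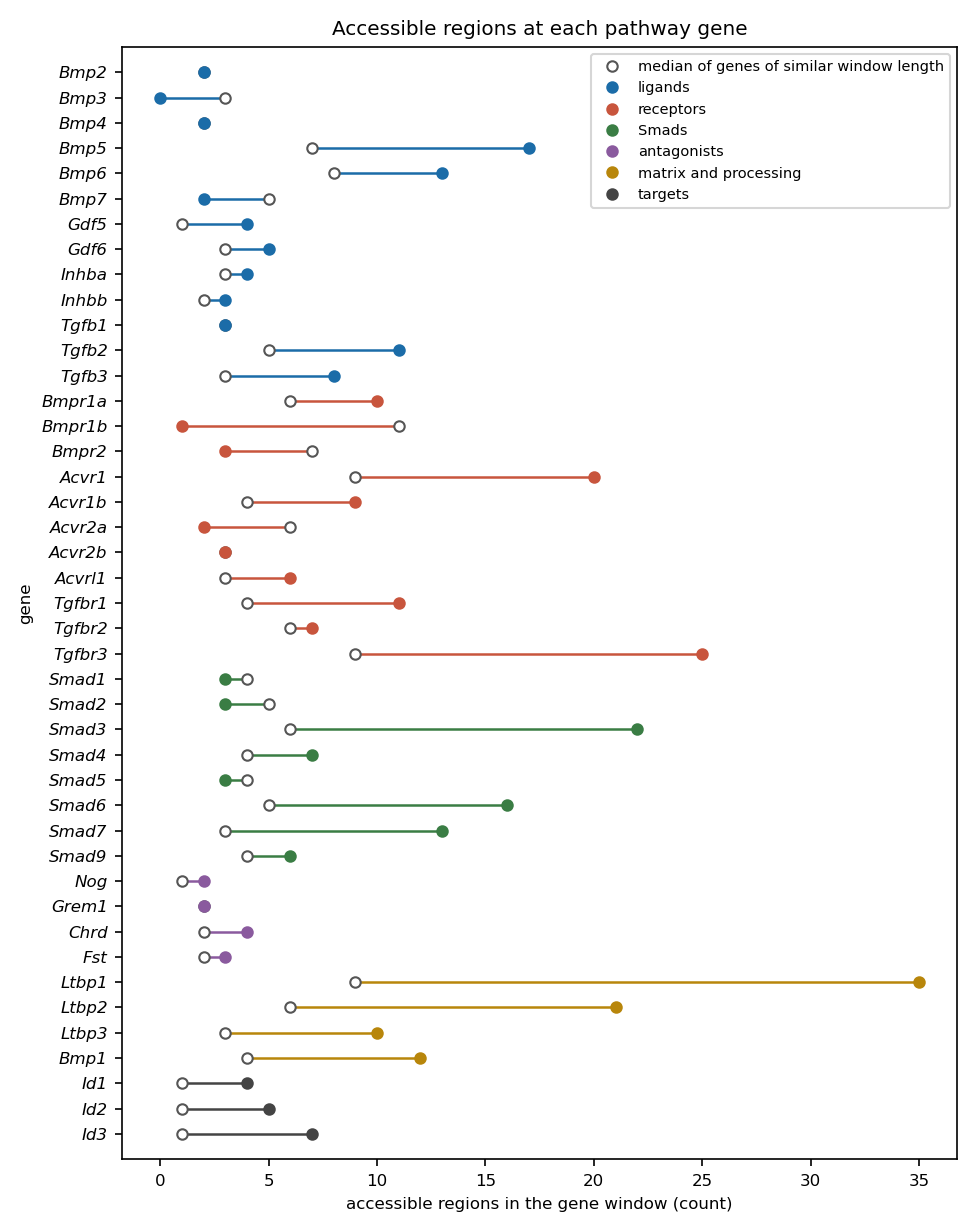
Number of accessible regions in the window of each of the 43 genes (filled points, coloured by role) beside the median of protein-coding genes of similar window length (open points). Ltbp1 (35), Tgfbr3 (25), Smad3 (22) and Ltbp2 (21) reach farthest to the right, and Bmpr1b (1 region against a median of 11) lies farthest below its median.

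Levels are compared between genes per length, as log2 CPM per kb of region. At their own starts, the region with the highest pooled level in each of the 40 members with one had a median of 4.86, against 4.75 for all genes with such a region. The role medians were 5.59 for the Id genes, 5.49 for matrix and processing genes, 5.09 for Smads, 4.87 for receptors, 4.01 for ligands and 3.73 for antagonists. With the start of the gene alone, as an alternative added after seeing the data, matrix and processing genes had 4.96 (3 genes) and ligands 3.93, and the other roles were the same. Away from any start, 269 member regions had a median of 3.31, and all 73426 such regions had 3.15. The roles there ran from 3.06 for ligands to 3.97 for the 4 antagonist regions, with 3.78 for Smads.

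**Figure D3:**
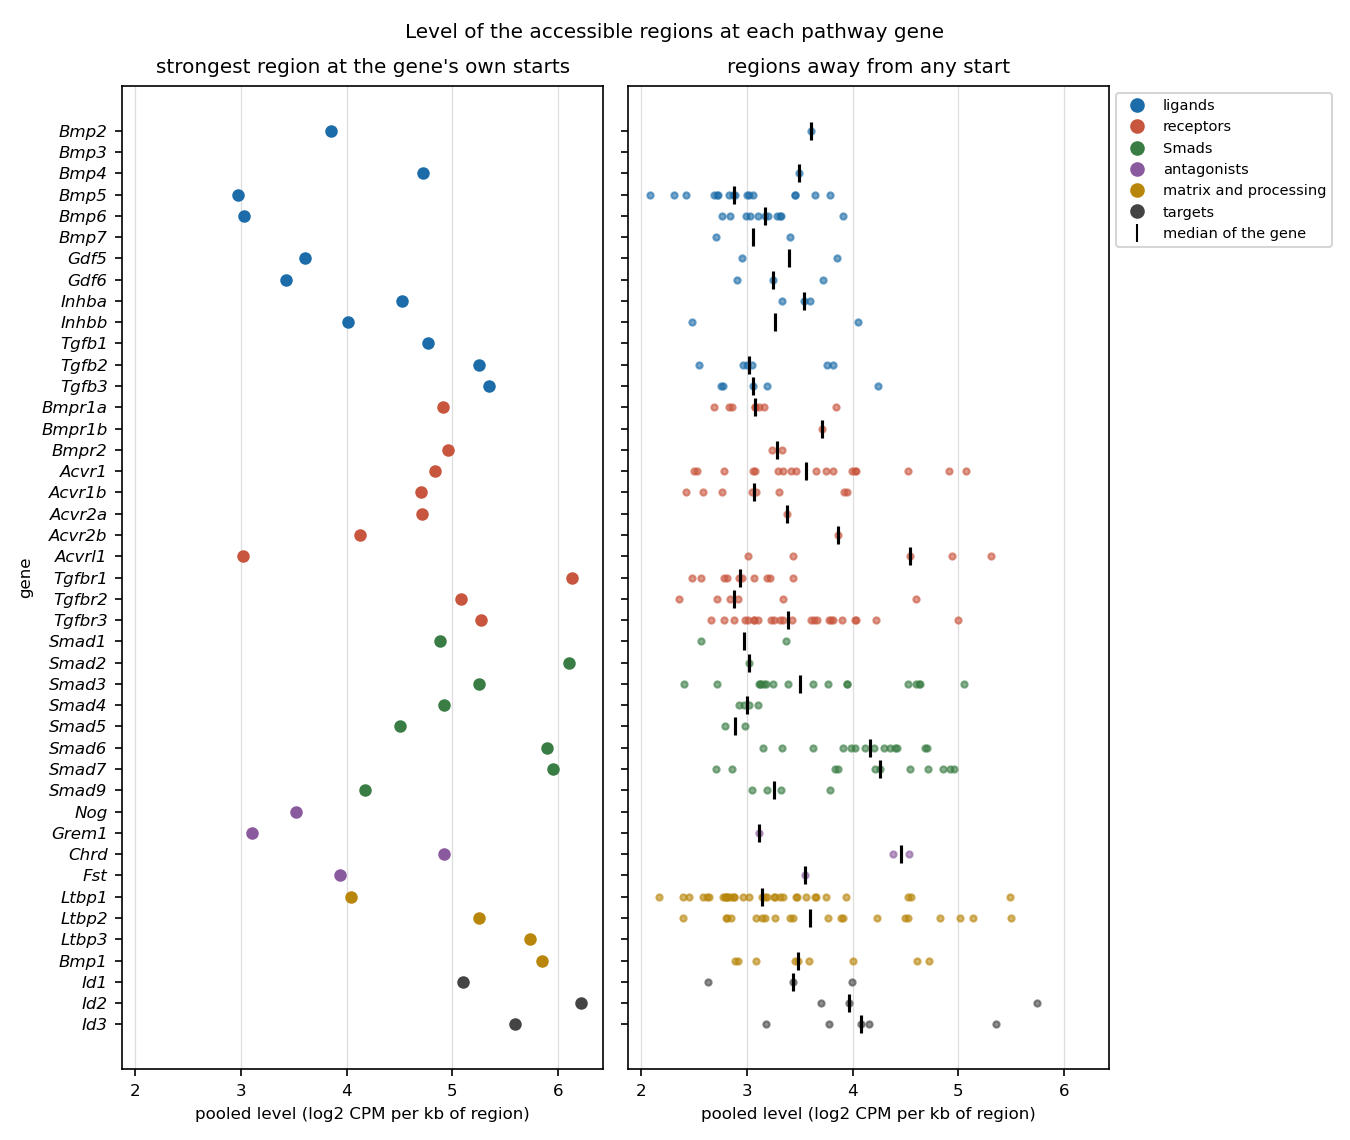
Pooled level in log2 CPM per kb of region for the region with the highest pooled level at each gene's own starts (left) and for its regions away from any start (right; the black mark is the median of the gene), coloured by role. The own starts run from 2.97 (Bmp5) to 6.22 (Id2), and the regions of Smad6 and Smad7 away from starts sit higher (medians 4.16 and 4.26) than those of most other genes.

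Among the ligands, the BMP genes had a lower median start than the TGF-beta genes. The 8 BMP and growth differentiation factor genes had 45 regions, and 6 of the 8 had a region at a start (64.1% of all protein-coding genes had one). These starts lay at 2.97 to 4.73 log2 CPM per kb (median 3.52). The 3 TGF-beta genes had 22 regions and starts at 4.78 to 5.35 (median 5.25). The medians lay apart, but the highest BMP start and the lowest TGF-beta start (Tgfb1) were too close to be ranked. This closeness rests on taking the Tgfb1 region with the highest pooled level, as its other own-start region had 5.28 per kb. The highest BMP start was that of Bmp4, an osteogenic ligand, at 4.73, and its region was centred at position 3458, near a downstream transcript start. Bmp2, a potent inducer of bone, had 3.85. Bmp5 (2.97), Bmp6 (3.03), Gdf6 (3.42) and Gdf5 (3.61), the last a joint-forming factor, were lower still. Values are pooled and carry no error, so the order of close neighbours such as Bmp5 and Bmp6 cannot be ranked.

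Bmp5 and Bmp6 had low starts and many regions. Bmp5 had 17 regions in a 145 kb window (similar genes, median 7) and Bmp6 had 13 (median 8), most of them in introns, and the highest region of Bmp6 away from starts (3.91 log2 CPM per kb, position 65582) was above its start. Bmp7 had 2 intronic regions (3.41 and 2.71) in 92.3 kb, where similar genes had a median of 5. Bmp3, which encodes a ligand that opposes osteogenic BMPs, had 0 regions in a 50.0 kb window against a median of 3. Absence from the list says only that no region passed the authors' calling and count filters.

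Tgfb1, the most abundant TGF-beta of bone matrix, had 3 regions, 2 at its own starts (4.78 and 5.28 log2 CPM per kb) and 1 at the start of the neighbour B9d2 (5.45). Tgfb2 had 11 regions and Tgfb3 had 8 (similar genes, medians 5 and 3). The activin subunit genes Inhba and Inhbb had 4 and 3 regions with starts at 4.53 and 4.01. Gdf5 also held in its window the start of Cep250 (5.14), and regions of that kind can belong to the neighbour.

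Among receptors, Tgfbr1, the type I receptor for TGF-beta, had the highest own start of the role (6.13 log2 CPM per kb, among the highest of the 40 members) and 11 regions against a median of 4. The lowest start was that of Acvrl1 (3.02), a type I receptor best known from endothelium. Acvr1, a BMP type I receptor, had 20 regions (median of similar genes 9), the highest of them away from starts reaching 5.07 at position 4851. Tgfbr3, the co-receptor betaglycan, had 25 (median 9), with a region at 5.00 inside the gene at position 122356. Bmpr1a had 10 and Acvr1b had 9 regions (medians 6 and 4).

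The type II receptor genes had fewer. Bmpr2, Acvr2a, Acvr2b and Tgfbr2 had 3, 2, 3 and 7 regions against medians of 7, 6, 3 and 6, and a median density of 0.39 per 10 kb, where the 6 type I genes had 1.18. Their starts did not stand lower for it: the type II median was 4.84 log2 CPM per kb (4.13 to 5.08) and the type I median also 4.84. Bmpr1b stood apart from the other type I genes. It had 1 region, in an exon at position 306416 (3.71), in a 352 kb window where similar genes had a median of 11, and none at a start although its start is CpG-rich.

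Among the Smads, accessibility was concentrated at Smad3, Smad6 and Smad7. Smad3, which carries the TGF-beta signal, had 22 regions (similar genes, median 6), Smad6 had 16 (median 5) and Smad7 had 13 (median 3). The share of similar genes with fewer regions was 98.4% for Smad3, 98.4% for Smad6 and 99.8% for Smad7. The BMP-activated Smad1, Smad5 and Smad9 had 3, 3 and 6 regions against a median of 4 for each, Smad2 had 3 (median 5) and Smad4 had 7 (median 4).

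The own starts did not follow the order of the counts. The inhibitory Smads had 5.90 (Smad6) and 5.96 (Smad7) log2 CPM per kb, Smad2 and Smad3 had 6.11 and 5.25, and Smad4 had 4.92. The BMP-activated Smad1, Smad5 and Smad9 had 4.89, 4.50 and 4.17, and Smad1 and Smad4 were too close to be ranked. Smad2 combined the highest start of the role with only 1 region away from any start (3.02). At Smad6 and Smad7 the 14 and 11 regions away from starts had medians of 4.16 and 4.26, and their highest values were 4.71 and 4.96. The compound element of Smad6 shown above lay in one of these intronic regions (4.29, centred at position 53177).

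The 4 antagonists had 11 regions in all, 0 of them in introns. These genes are short (1.70 to 12.5 kb), so their windows are mostly upstream sequence. Nog (noggin) had 3.52 log2 CPM per kb at its start, Grem1 (gremlin) 3.11, Fst (follistatin, an activin trap) 3.93 and Chrd (chordin) 4.92. Grem1 had 2 regions, as did similar genes at the median, and its start region held the compound element shown above. The highest region in the Chrd window (6.25) covered the starts of Clcn2 and Polr2h, centred at position -16121, and the own start of Chrd also lay within 1000 bp of a start of Thpo.

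Matrix and processing genes were the most densely covered after the Id genes. Ltbp1, Ltbp2 and Ltbp3 encode latent TGF-beta binding proteins, which hold TGF-beta in the matrix, and had 35, 21 and 10 regions against medians of 9, 6 and 3. Bmp1, a protease that cleaves procollagen and chordin, had 12 (median 4). The own-start regions plotted for this role all lay at downstream transcripts: Bmp1 at position 14367 (5.85 log2 CPM per kb), Ltbp3 at 2728 (5.73), Ltbp2 at 85444 (5.25) and Ltbp1 at 173842 (4.04). At the start of the gene itself Bmp1 had 4.96, Ltbp1 had 4.44, Ltbp3 had 2 regions at 4.35 and 5.19, and Ltbp2 had none. In the Ltbp3 window 5 of the 10 regions lay at starts of neighbours, among them Ehbp1l1 (5.95), and the count for Ltbp3 rests in part on them.

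The Id genes had short windows and many regions: 4 for Id1, 5 for Id2 and 7 for Id3, where similar genes had a median of 1. All 16 regions lay at own starts (5) or upstream (11). Id2 had one of the highest own starts of the 40 members (6.22 log2 CPM per kb), too close to Tgfbr1 (6.13) and Smad2 (6.11) to be ranked. Its pooled level before division by length (6.08, width 909 bp) was below those of Tgfbr1 (7.08) and Smad2 (6.73). Id3 had 5.59 and Id1 had 5.10 per kb. The elements shown above lay in strong regions: the start region of Id1, the upstream region of Id2 at position -1556 (5.75) and the upstream region of Id3 at position -3009 (5.36). The other Id3 element lay in a narrower region at position 1266 (4.60), near a downstream start.

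**Figure D4:**
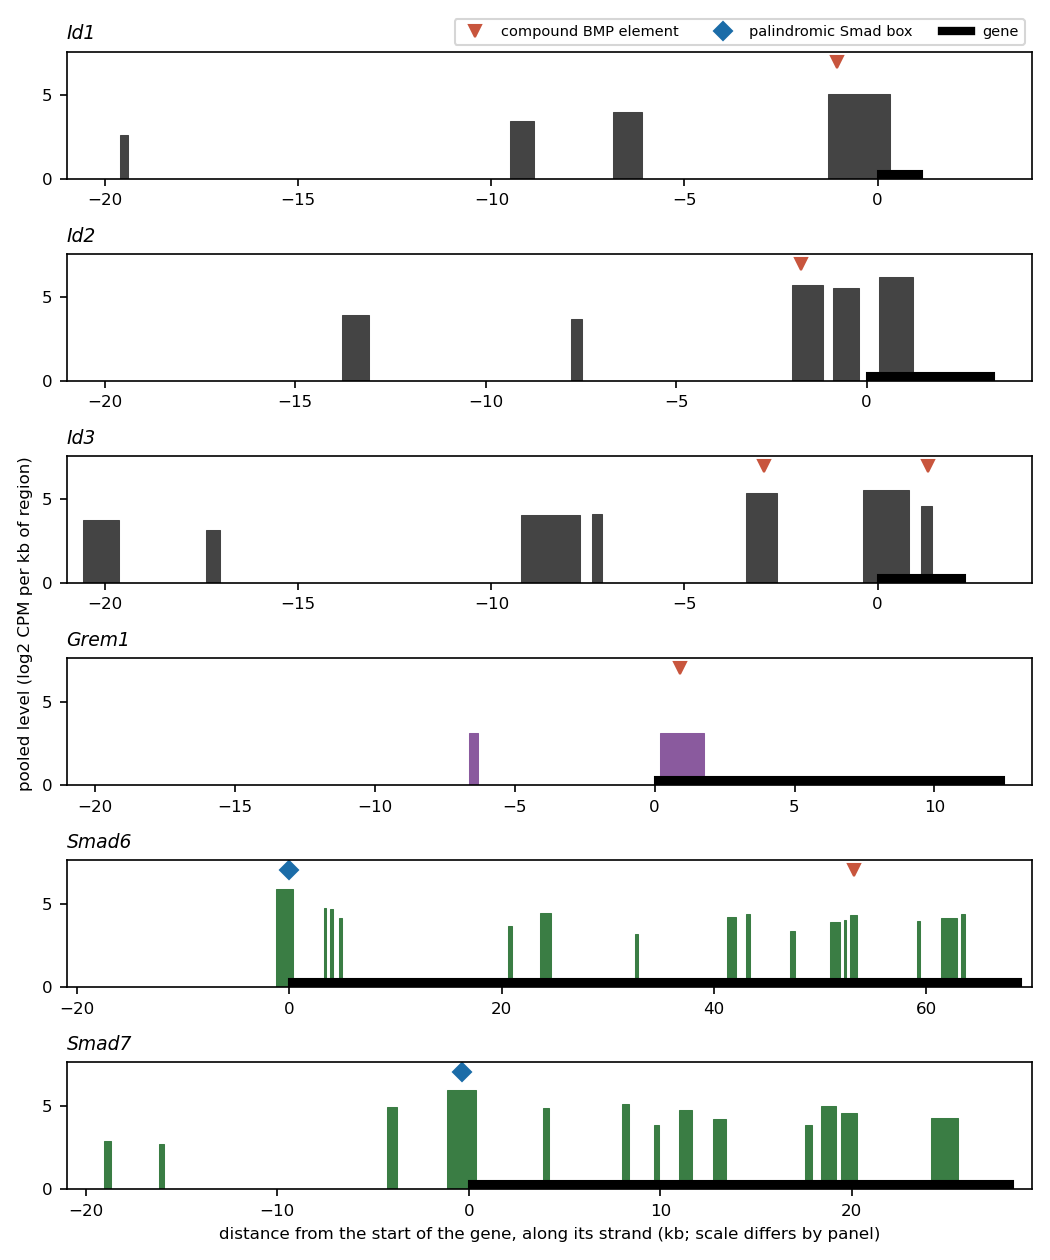
Accessible regions of Id1, Id2, Id3, Grem1, Smad6 and Smad7 by distance from the start of the gene along its strand (x axis, kb, with a scale for each panel), with bar height giving the pooled level in log2 CPM per kb of region and the black strip marking the gene. Triangles mark compound BMP elements and diamonds palindromic Smad boxes; the Id1 to Id3 elements lie in regions at or near the start, and the box of Smad6 lies on its start (position 0).

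The strongest chromatin more than 1000 bp from any transcript start, which can still be near a promoter or in an exon, was then read. For each role this was the central 200 bases of the region with the highest level per kb there, outside untranslated sequence. The Smad2, Smad4 and Smad7 regions were not among those considered. Capitals mark matches to any of the 6 motifs.
Tgfb3 (chr12:86088043-86088242, plus strand): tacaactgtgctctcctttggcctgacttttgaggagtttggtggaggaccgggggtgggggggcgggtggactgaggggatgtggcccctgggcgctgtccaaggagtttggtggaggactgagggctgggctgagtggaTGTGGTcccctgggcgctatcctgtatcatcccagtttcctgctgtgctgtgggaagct
Acvrl1 (chr15:101141226-101141425, plus strand): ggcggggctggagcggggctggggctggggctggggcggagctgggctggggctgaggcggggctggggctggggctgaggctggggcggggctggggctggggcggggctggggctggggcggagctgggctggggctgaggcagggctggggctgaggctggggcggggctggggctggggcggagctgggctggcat
Smad3 (chr9:63702688-63702887, plus strand): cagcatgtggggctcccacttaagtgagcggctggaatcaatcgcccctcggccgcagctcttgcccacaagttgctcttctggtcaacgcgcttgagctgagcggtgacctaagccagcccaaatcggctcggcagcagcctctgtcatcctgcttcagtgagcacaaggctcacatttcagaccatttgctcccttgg
Chrd (chr16:20726407-20726606, plus strand): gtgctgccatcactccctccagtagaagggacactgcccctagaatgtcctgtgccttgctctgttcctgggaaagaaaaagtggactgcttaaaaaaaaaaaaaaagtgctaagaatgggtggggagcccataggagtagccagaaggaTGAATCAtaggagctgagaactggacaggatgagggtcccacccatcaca
Ltbp2 (chr12:84847093-84847292, plus strand): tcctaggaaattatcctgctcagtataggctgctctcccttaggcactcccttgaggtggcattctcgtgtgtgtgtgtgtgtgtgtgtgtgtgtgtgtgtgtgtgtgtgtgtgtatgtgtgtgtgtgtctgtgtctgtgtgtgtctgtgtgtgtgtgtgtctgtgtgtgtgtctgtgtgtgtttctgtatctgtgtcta
Id2 (chr12:25098597-25098796, plus strand): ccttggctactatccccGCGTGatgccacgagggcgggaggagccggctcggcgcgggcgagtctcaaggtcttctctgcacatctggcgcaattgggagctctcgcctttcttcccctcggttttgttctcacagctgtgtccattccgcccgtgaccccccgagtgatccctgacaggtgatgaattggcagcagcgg

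The regions had 4.25 (Tgfb3, position -9101), 5.31 (Acvrl1, exon, 12803), 5.05 (Smad3, intron, 55207), 4.39 (Chrd, -6621), 5.50 (Ltbp2, intron, 29340) and 5.75 (Id2, -1556) log2 CPM per kb. The Acvrl1 and Ltbp2 sequences are repetitive. The Acvrl1 stretch was 82.0% GC with 16 copies of GGGGCT, and 42.4% of its region was marked as repeat in the reference. The Ltbp2 stretch contained an unbroken 2-base repeat of 48 bases, with 23.7% of the region marked. The longest such repeat in the other 4 sequences was 5 bases. This measure does not count longer repeated units, which the Tgfb3 stretch holds, or the run of A in the Chrd stretch. Read placement is less certain in repeats, and its part in these levels was not tested. The share marked was 26.6% at Tgfb3, 15.5% at Chrd, 15.0% at Id2 and 10.2% at Smad3, so that of Ltbp2 was below Tgfb3 and above Chrd, Id2 and Smad3.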

How the data were processed

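ATAC-seq was measured in 11 MPC2 samples in 4 groups. Per the submitters' notes and the methods, the authors aligned reads to mm10 with Bowtie2, removed duplicates with Picard 2.17.8, called peaks with MACS2 2.2.7.1, merged them, counted cuts per region and normalised with edgeR 3.24.3. The deposited list holds 1 pooled value per region and no header. Its unit, average log2 CPM, was inferred from the deposited values: 460 were below 0, and 2 to the power of the values summed to 1012761. Merged regions widen with the number of peaks beneath them, so levels were also expressed per kb. No test was run, because the list gives 1 pooled value per region, and depth per sample is unknown. The study's own region-level comparisons between groups were not used here.

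Starts in the list were taken as 0-based and are printed 1-based. No region ran past a chromosome end of GRCm38. Genes were all 43 listed members, described by role. In each role the members with most regions, with the highest and lowest own start, with the highest level elsewhere and without a region or start region were named, together with all 3 Id genes. Members, lists and motifs were chosen with earlier results of these data known. Window counts, levels and motif matches (both strands) were computed in Python 3.11.15 with numpy 2.4.6, pandas 2.3.3 and scipy 1.17.1 and checked on simulated data. Of 21938 protein-coding genes, 21936 had others of similar window length. A list of 56 other pathway genes was also counted, with Ccn2 for Ctgf and Hjv left out as the same gene as Hfe2. The count over markers of other cell types is not reported here. RefSeq promoters (GRCm38) were matched for 28 of the 43 members. Alternatives changed the window, the start distance, the minimum width (500 bp), the joining of regions within 500 bp, and the motif letters.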

Additional observations from a re-analysis of the deposited data

How the results depend on the processing

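No paired analysis was possible because each region has only a value pooled over samples. Across 27 results and 76 alternatives, 53 values stayed within 1.5 times (counts), within the binomial interval of a share or median, or within the range of a small role, and 23 moved. Windows of 10 kb or 50 kb upstream gave 315 and 451 member regions against 349, and 42 members had a region under either. Regions of at least 500 bp gave 172 member regions and densities per 10 kb of 0.50 for all members (all protein-coding genes 0.29), 0.37 for ligands, 0.27 for receptors, 0.45 for Smads, 0.61 for antagonists, 0.94 for matrix and processing genes and 1.71 for targets, so that receptors fell to about the level of all genes. Their levels were 5.27 log2 CPM at starts and 3.47 elsewhere, or 3.78 per kb. The density of antagonists was 1.63 with 10 kb upstream, and that of targets 1.72 with 50 kb. In the central 200 bp and in regions of at least 500 bp, the shares of member regions were 6.30% and 29.7% for the GC-rich site, 1.15% and 5.23% for the compound element, 14.3% and 33.1% for AP-1, 24.9% and 74.4% for the HRE core, and 17.8% and 48.8% for the Runx core. The matching shares of all regions were 4.67% and 19.3%, 0.0874% and 0.585%, 15.2% and 35.8%, 24.2% and 66.3%, and 22.2% and 55.3%. An HRE core of ACGTG alone gave 30.1% (all regions 27.1%), a strict AP-1 site 20.9% (22.1%), and a GGCGCC core in the compound element, added after seeing the data, 1.15% (0.0885%). These shares change by construction, since the central 200 bp and the stricter letters leave less to match and wider regions hold more bases. The pooled value and the unknown depth limit every level given here, and genes whose regions fell under the authors' filters cannot be told from closed genes.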

Other observations

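The 56 other genes of the pathway, which include further ligands, co-receptors, regulators of Smads and targets, were counted in the same way and had 250 regions. At least 1 region was found at 51 of them (79.5% of all protein-coding genes) and a region at a transcript start at 41 (73.2%, against 64.1% of all). More regions than the median of similar genes were found at 38 (67.9%, against 44% of all), fewer at 12. Regulators of Smads varied: Ski, a Smad co-repressor, had 16 regions (similar genes, median 5) and a start at 6.63 log2 CPM per kb, and the ubiquitin ligases Smurf1 and Smurf2 had 15 and 12 (median 6 for each), while the co-repressors Skil, Tgif1 and Tgif2 had 4, 7 and 1 (medians 3, 2 and 3). Tgfbi, a TGF-beta-induced matrix protein, had 12 regions (median 3) but a start at only 3.17. Sost, which encodes sclerostin, had 5 regions (median 1) and none at a start. Bmp10, Bmp15, Cer1, Hfe2 and Mstn, ligands and modulators of other tissues, had 0 regions. These examples were chosen after their values were seen.

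In fixed windows of 300 bases at RefSeq gene starts, matched for 28 members, the compound element was found in 0, against 0.278% of 27025 genes. The elements described above lay outside these windows or in members without a matched window. In the same windows the HRE core was found in 20 of 28 members and 46.7% of all genes, and the GC-rich site in 9 of 28 and 13.4%. Both sets of letters contain CpG, and 72.1% of the 43 members had CpG-rich starts, against 38.3% of all protein-coding genes. The part of base composition in these shares was not tested. The 27025 RefSeq genes are also a different set from the 21938 protein-coding genes used above. The Runx core was in 1 of 28 (18.9% of all genes) and the AP-1 site in 1 of 28 (8.97%).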
